A study of Mus musculus with 6 samples.

Results

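The genes described are the EGF receptor family with its ligands, the sheddase Adam17 and the inhibitor Errfi1, 10 genes of the 10616 listed in a table of raw counts. They were chosen by symbol, and all 10 symbols were found: the receptors Egfr, Erbb2 and Erbb3, the ligands Areg, Ereg, Hbegf, Tgfa and Btc, then Adam17 and Errfi1. The 6 libraries were made from the mouse line KPC, which models pancreatic ductal adenocarcinoma, cultured with serum and sorted as live cells. In 3 libraries (shBrca2) the cells carried a lentiviral pLKO.1 hairpin against Brca2, and in 3 libraries (shControl) a pLKO.1 hairpin without a target, both kept by puromycin selection. Hence both groups shared the virus, the drug selection and the tumor line, and whether the line or its hairpin derivatives were clones is not given in the sources used here. The labels do not say that the libraries of a group came from separate cultures, so p-values measure only the spread between these libraries, which may be technical.

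ErbB receptors are tyrosine kinases of the epithelial cell surface. Their ligands are made as membrane anchored precursors, and Adam17 cuts several of them loose. Bound receptors pair and signal through the Ras, MAP kinase and PI3K routes, while Errfi1 (also called Mig6) is induced by that signaling, binds the active receptor kinase and dampens it. In pancreatic ductal adenocarcinoma this axis is known for its role in tumor formation.

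The libraries held 1519340 to 2452467 counts. All counts given below as normalized were divided by DESeq2 size factors. Raw counts of the targeted gene were 10, 11 and 14 in shBrca2 and 33, 52 and 33 in shControl, so Brca2 was lower by -1.61 ± 0.44 (SE) on the log2 scale (DESeq2 adjusted p = 0.029), and leaving out a library raised that adjusted p to between 0.0684 and 0.371. On the first principal component, which held 43.4% of the variance of 5681 genes, shControl 3 scored 24.3 and the other libraries scored between -16.9 and 9.76. Of 9 ductal epithelial markers 8 were listed. Their summed normalized counts were 16783 to 17612 in shBrca2 and 17674 to 18845 in shControl, ranges that did not overlap. For 20.3% of all listed genes the normalized counts of the groups did not overlap. Of these 8 markers 2 were called, where 1.27% of all genes with an adjusted p were. They were the keratin Krt7 (log2 fold change 1.21, DESeq2 adjusted p = 2.07e-06) and the transcription factor Sox9 (1.20, adjusted p = 0.0391), named after their values were seen. Both were higher in shBrca2, against the direction of the sum, which was lower there. Epcam, Cdh1, Krt8, Krt18, Krt19 and Muc1 were not called. The part of these markers in the results below was not tested. Fibroblast and stellate cell markers were nearly absent, since 2 of 11 were listed and summed to between 13.8 and 42.4 normalized counts in any library. Of 9 immune markers 1 was listed, Cd68, at 11.1 to 20.4 normalized counts, and 0 of 6 endothelial markers were listed. Of 8 acinar and islet markers 1 was listed, Cela1, at 31.3 to 58.3 normalized counts.

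Of the 10 genes, none was called between shBrca2 and shControl. A call needed a Benjamini-Hochberg adjusted p under 0.1 over all genes, a log2 fold change beyond 0.5 in either direction, and a base mean (the mean normalized count of the 6 libraries) above 5. DESeq2 gave an adjusted p to 9 of the 10 genes, and 0 of them were called, where 1.27% of the 9997 genes with an adjusted p were. An unadjusted p under 0.05 was found for 0 of the 10 genes by DESeq2, against 8.66% of all genes with an adjusted p. By edgeR it was found for 0 of the 9 tested, against 1314 of all 9092 genes tested. The log2 fold change was positive for 7 genes and negative for 3, with a median of 0.25. Over all 9997 genes with an adjusted p the median was -0.00094, and 4981 values were positive. The genes differed far more in how tightly their libraries agreed than in their group means. Areg and Hbegf had no overlap between the groups and small differences, whereas Errfi1, Ereg and Btc varied by over 5-fold among the 6 libraries, as did Egfr at counts near the detection floor. In bulk samples such as these, fewer expressing cells and less RNA per cell cannot be told apart.

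**Figure D1:**
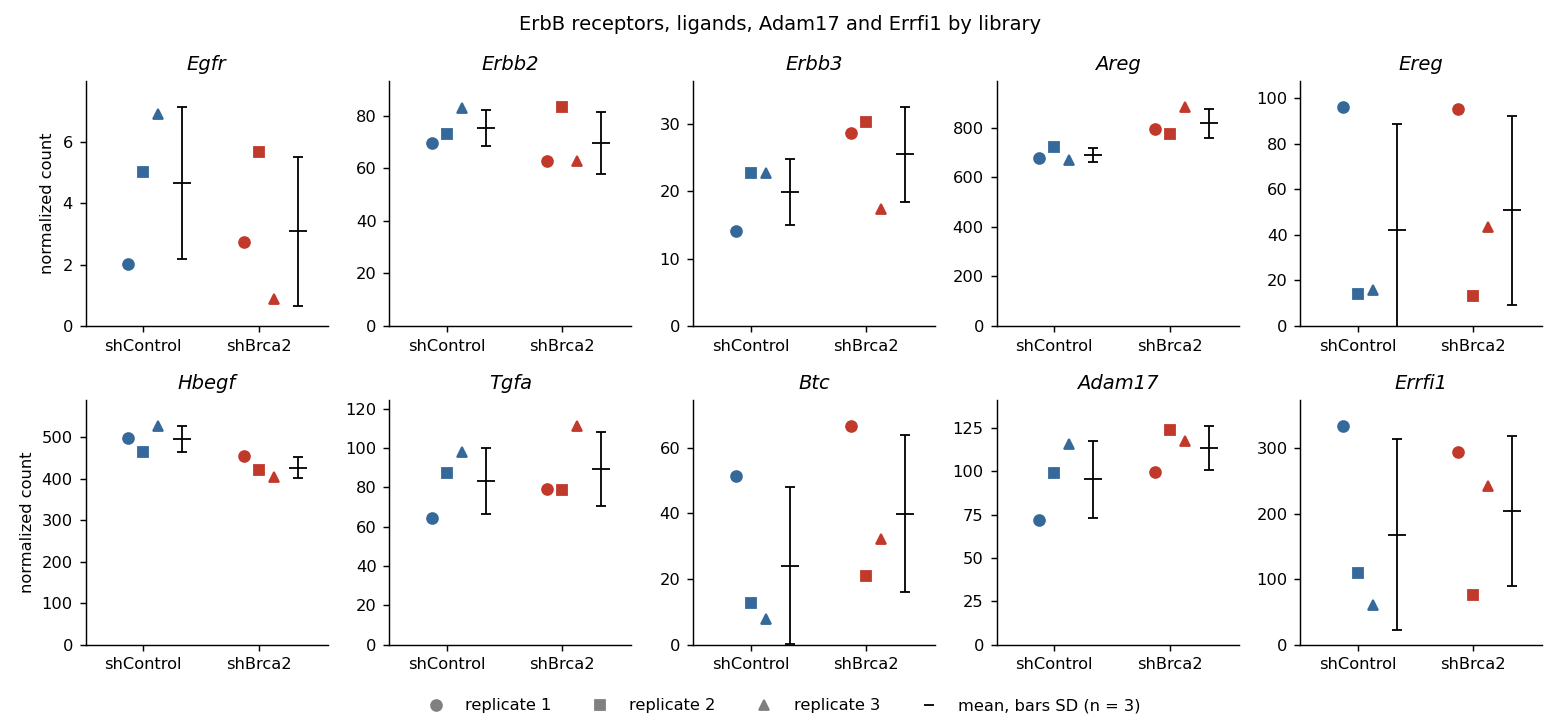
Normalized counts (linear axes from 0) of the 10 genes in each of the 6 libraries, with shControl in blue and shBrca2 in red, a marker shape for each library and a bar for the mean ± SD (n = 3, cut at 0 for Ereg in shControl). Areg and Hbegf form tight groups that do not overlap, and Errfi1, Ereg and Btc are each spread widely within both groups.

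Areg encodes amphiregulin, a ligand of EGFR. Normalized counts of Areg were 795, 776 and 883 in shBrca2 and 678, 721 and 672 in shControl. Every shBrca2 library lay above every shControl library, by a small margin. The group means were 818 ± 57.1 (SD, n = 3) and 691 ± 26.7 (SD, n = 3). On the log2 scale the difference was 0.25 ± 0.14 (SE). It did not pass the test (DESeq2 adjusted p = 0.678), and the 95% interval of the fold ran from 0.977 to 1.44. Leaving out each library in turn gave log2 fold changes of 0.19 to 0.28, all in the same direction.

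Hbegf encodes heparin-binding EGF-like growth factor, a ligand of EGFR and ERBB4. Normalized counts of Hbegf were 455, 421 and 405 in shBrca2 and 499, 465 and 527 in shControl. Here every shBrca2 library lay below every shControl library. The means were 427 ± 25.3 (SD, n = 3) and 497 ± 31.3 (SD, n = 3). The difference of -0.22 ± 0.15 (SE) on the log2 scale did not pass the test (DESeq2 adjusted p = 0.784). The 95% interval of the fold was 0.697 to 1.06, and the log2 fold change stayed between -0.27 and -0.18 when a library was left out. Thus the groups did not overlap for 2 of the 10 genes, and they did not overlap for 20.3% of all listed genes.

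As Areg and Hbegf lay in opposite directions, their ratio within a library was also taken, a choice made after their values were seen. For each raw count of Hbegf there were 1.75, 1.84 and 2.18 of Areg in shBrca2 and 1.36, 1.55 and 1.28 in shControl. The ratio does not depend on how the libraries were scaled. The ratio was higher in all shBrca2 libraries, an outcome already fixed by the separate values of Areg and Hbegf above. No test was run because the ratio was picked for that difference.

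Tgfa encodes transforming growth factor alpha, a further EGFR ligand. The libraries held 79.0, 78.5 and 111 normalized counts in shBrca2 and 64.7, 87.2 and 97.9 in shControl, so the groups overlapped. The log2 fold change was 0.11 ± 0.27 (SE, DESeq2 adjusted p = 0.974), and the 95% interval of the fold, 0.752 to 1.55, leaves room for a change in either direction.

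Ereg encodes epiregulin, a ligand of EGFR and ERBB4. Normalized counts of Ereg were 95.3, 13.2 and 43.5 in shBrca2 and 96.0, 14.3 and 15.8 in shControl. The highest library of each group lay at nearly the same level, and so did the lowest. The highest library held 7.25 times the lowest, which leaves a log2 fold change of 0.27 ± 1.10 (SE, DESeq2 adjusted p = 0.988) and a 95% interval of the fold from 0.269 to 5.39. Leaving out a library moved the log2 fold change of Ereg between -0.57 and 1.75, so its direction rested on single libraries.

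Btc encodes betacellulin, which binds EGFR and ERBB4. Its normalized count was 66.7, 20.8 and 32.2 in shBrca2 and 51.5, 12.6 and 7.91 in shControl. shControl 1 stood apart from the other shControl libraries and overlapped the shBrca2 range. With all libraries the log2 fold change was 0.73 ± 0.90 (SE, DESeq2 adjusted p = 0.925). Without shControl 1 it was 1.93 with an adjusted p of 0.0736 by DESeq2, a call in that fit, where 1.46% of 9585 genes were called and 1.02% called higher. No other fit called Btc, and its log2 fold change was 0.15 to 1.93 over the 6 fits with a library left out.

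**Figure D2:**
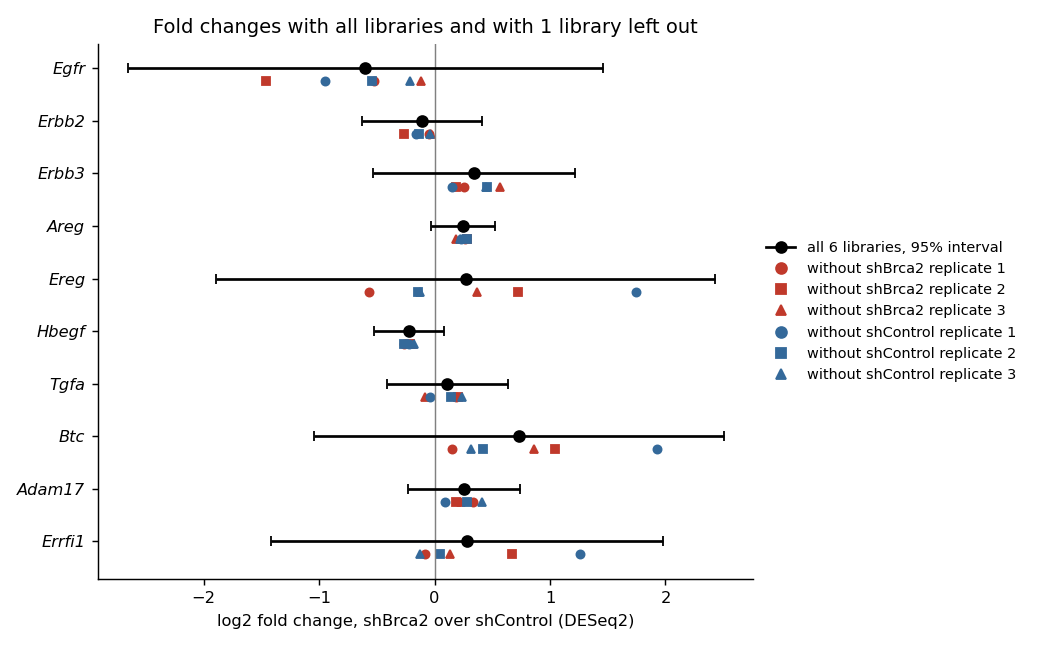
Log2 fold change of shBrca2 over shControl for each of the 10 genes from the DESeq2 fit of all 6 libraries (black, with the 95% interval), and from the 6 fits with a library left out (colored markers below). The intervals are narrow for Areg and Hbegf and wide for Ereg, Errfi1, Btc and Egfr, and each includes 0.

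Among the receptors, Egfr was at the limit of detection. Its raw count was 2, 6 and 1 in shBrca2 and 2, 6 and 7 in shControl, against a detection floor of 3 counts per library. The 2 groups overlapped, and 3 of the 6 libraries were below the floor. DESeq2 gave no adjusted p for Egfr because its base mean of 3.87 was under the independent filter at 4.64, and edgeR filtered it out. The log2 fold change was -0.60 ± 1.05 (SE), with a 95% interval of the fold from 0.159 to 2.75, so a difference between the groups was not detectable at this depth. It was -1.46 without shBrca2 2 and -0.12 without shBrca2 3, the extremes over the fits with a library left out, and 0.055 with a surrogate variable, an unlabelled factor estimated from the counts.

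Erbb2, the receptor without a ligand of its own, had normalized counts of 62.7, 83.2 and 62.7 in shBrca2 and 69.7, 73.0 and 83.1 in shControl. The highest values of the groups were nearly equal. The log2 fold change was -0.11 ± 0.27 (SE, DESeq2 adjusted p = 0.975), with a 95% interval of the fold from 0.645 to 1.33. Erbb3, a neuregulin receptor with a weak kinase that signals mainly through its partners, had normalized counts of 28.6, 30.2 and 17.4 in shBrca2 and 14.1, 22.6 and 22.7 in shControl. These groups overlapped as well, with a log2 fold change of 0.34 ± 0.45 (SE, DESeq2 adjusted p = 0.931) and an interval of the fold from 0.692 to 2.32.

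Adam17, the metalloprotease that sheds Areg, Hbegf, Ereg and Tgfa precursors, had normalized counts of 99.4, 124 and 117 in shBrca2 and 71.7, 99.0 and 116 in shControl. The lowest library was shControl 1, and the ranges overlapped. The log2 fold change was 0.25 ± 0.25 (SE, DESeq2 adjusted p = 0.884), with a 95% interval of the fold from 0.853 to 1.67.

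Errfi1, the feedback inhibitor, showed one of the widest spreads among genes of its level. Normalized counts of Errfi1 were 294, 75.6 and 243 in shBrca2 and 334, 110 and 60.3 in shControl. High levels were found in shBrca2 1, shBrca2 3 and shControl 1, and the others were low, so each group held libraries of both kinds. The highest library held 5.55 times the lowest, while counting error alone gives a coefficient of variation of 7.33%. The group means were 204 ± 114 (SD, n = 3) and 168 ± 146 (SD, n = 3). Their difference was 0.28 ± 0.87 (SE) on the log2 scale (DESeq2 adjusted p = 0.985), with a 95% interval of the fold from 0.375 to 3.93. Leaving out shControl 3 gave -0.12 and leaving out shControl 1 gave 1.26, so the sign of the difference rested on the libraries kept.

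Ereg and Btc were high in the same 3 libraries as Errfi1. To place these spreads, the SD of log2 normalized counts within groups was ranked for each gene among the 500 genes nearest to it in level. Errfi1 ranked at the 99.6 percentile, Ereg at 99.4 and Btc at 98.0, whereas Areg ranked at 8.6 and Hbegf at 10.6. The tight and the variable genes therefore include ligands of the same receptor. The 3 libraries where Errfi1, Ereg and Btc were high were also those with negative scores on the first principal component. That component was computed from 5681 genes with a base mean of at least 50, which included Errfi1 but not Ereg or Btc. The scores were -11.9 for shBrca2 1, -16.9 for shBrca2 3 and -6.39 for shControl 1. They were 1.11, 9.76 and 24.3 for shBrca2 2, shControl 2 and shControl 3. The pattern thus followed the main axis of variation between libraries, whose part in it was not tested. Pearson's r with that axis was -0.84 for Errfi1, -0.71 for Ereg and -0.88 for Btc. It was not particular to them, with 0.88 for Egfr, 0.82 for Erbb2, -0.73 for Areg and 0.67 for Hbegf. For Erbb3, Adam17 and Tgfa r was 0.23, 0.21 and 0.11.

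By a fixed rule, the 5 genes most like Errfi1 over the 6 libraries were taken from 5680 genes with a base mean of at least 50, by Pearson's r of log2(normalized count + 1). They were Hsd17b12 (r = 0.995), Picalm (0.991), Abi1 (0.989), Tjp1 (0.988) and Hbp1 (0.986). Picalm, a clathrin assembly protein, had normalized counts of 176, 51.0 and 143 in shBrca2 and 175, 60.4 and 31.6 in shControl, and was high in the same 3 libraries. Tjp1, the tight junction protein ZO-1, had 118 to 176 normalized counts in those 3 libraries and 17.8 to 50.3 in the others. Hsd17b12 followed the pattern over a narrow range of 572 to 671. These values describe 6 libraries, in 5680 genes searched, and share their size factors.

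The same rule was applied to Erbb2 and Areg, the receptor and the ligand with the highest base mean. The genes most like Erbb2 were Efna4 (r = 0.991), Myc (0.979), Ptpn21 (0.967), Tmem203 (0.965) and Tanc1 (0.965). Those most like Areg were Utp14a (r = 0.984), Plscr1 (0.984), Atp5c1 (0.976), Pdcl3 (0.975) and Upf3b (0.974). For Erbb2 the coefficient of variation was 17.1% in shBrca2 and 9.25% in shControl, while counting error alone gives 11.8%.

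**Figure D3:**
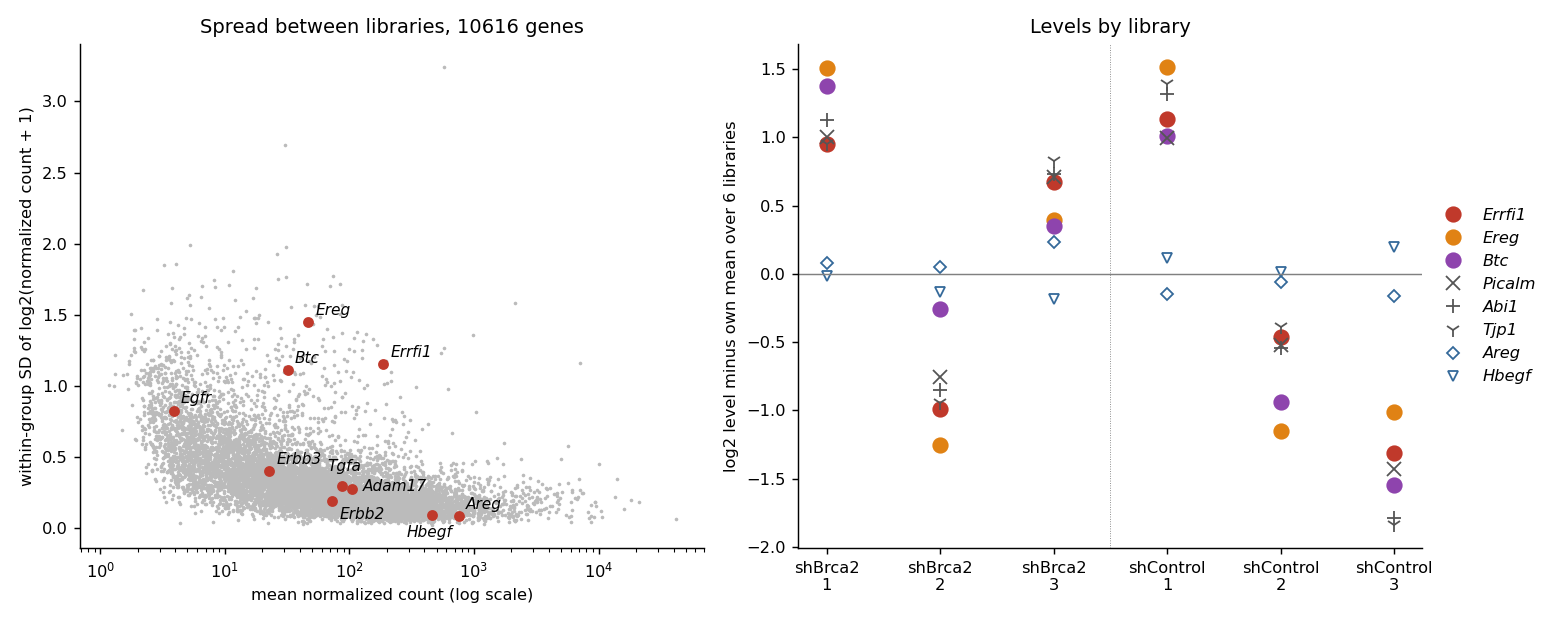
Left, the SD of log2(normalized count + 1) within groups against the mean normalized count (log axis) of all listed genes, with the 10 genes in red. Right, log2 level minus the gene's own mean in each library for Errfi1, Ereg, Btc, 3 genes most like Errfi1, Areg and Hbegf, where Errfi1, Ereg and Btc are above 0 in shBrca2 1, shBrca2 3 and shControl 1 and below 0 in the others.

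Ereg, Areg and Btc lie beside each other on mouse chromosome 5 (GRCm38, RefSeq), Ereg at 91074617 to 91093649, Areg at 91139599 to 91148432 and Btc at 91357261 to 91402994. The gap from the end of Ereg to the start of Areg is 45.95 kb, and that from the end of Areg to the start of Btc is 208.8 kb. A window from Rassf6 to Parm1 spans 1021 kb and holds 14 protein coding genes, 10 of them listed and none called. Areg thus stood between neighbors that varied by 7.25 times (Ereg) and 8.44 times (Btc) among libraries while it varied little. Its base mean of 754 was also far above those of Ereg (46.4) and Btc (32.0). Steadiness was not particular to Areg in this window. Rassf6 ranged from 150 to 190 normalized counts and Parm1 from 412 to 574, whereas Mthfd2l ranged from 1.98 to 15.0. Cxcl5, a neutrophil chemokine of this window, had normalized counts of 277, 259 and 229 in shBrca2 and 226, 250 and 40.5 in shControl, with shControl 3 alone low.

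The other genes lie apart (same build). Errfi1 is on chromosome 4 at 150853796 to 150868889, Tgfa on 6 at 86195038 to 86275744 and Erbb3 on 10 at 128567523 to 128589635. Egfr, at 16752203 to 16913907, and Erbb2, at 98412484 to 98437716, are on chromosome 11, and Adam17 is on 12 at 21323509 to 21373632.

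**Figure D4:**
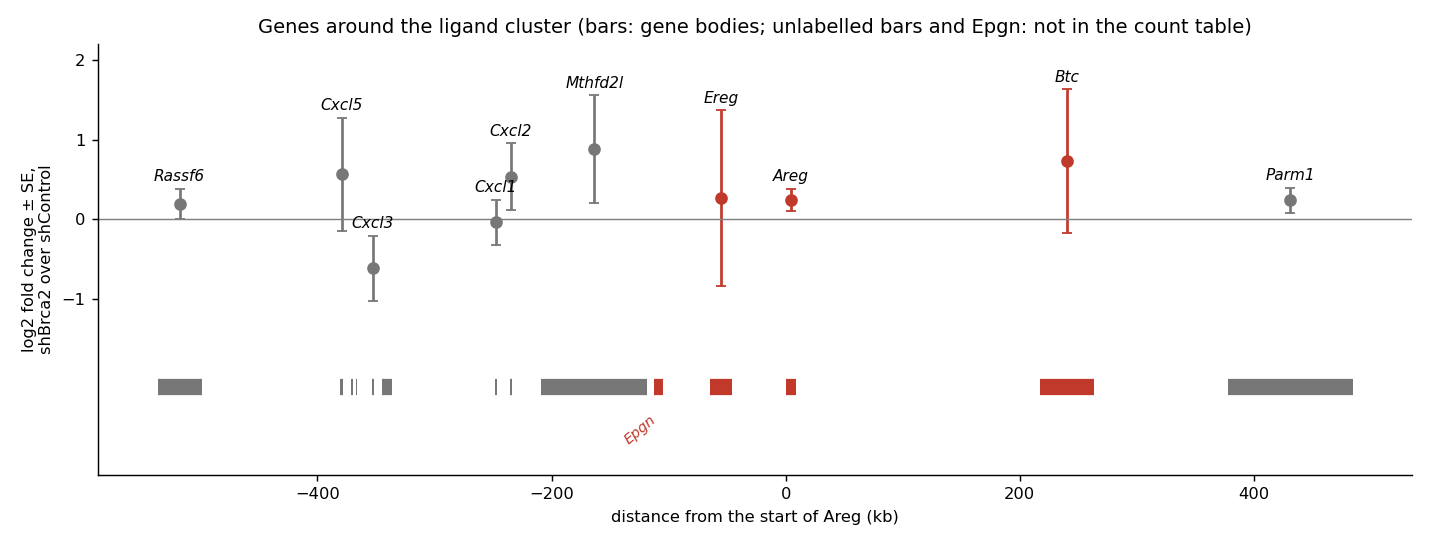
Log2 fold change of shBrca2 over shControl with its SE for each listed protein coding gene around Ereg, Areg and Btc (red), placed by distance in kb from the start of Areg, with gene bodies as bars below. The error bar of Areg (SE 0.14) is much shorter than those of Ereg (1.10) and Btc (0.90).

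Since these are 3′ end libraries, 3′ UTRs bear on where counts fall. ATTTA motifs there are known from short-lived mRNAs, and turnover was not measured. In GENCODE vM39, with 1 transcript a gene over 10015 listed genes, the median 3′ UTR was 1263 bases long and 71.0% of genes held at least 1 ATTTA. Areg had a short 3′ UTR of 256 bases with 4 ATTTA motifs, or 15.6 per kb, the 99.8 percentile of these genes. Errfi1 had 4 in 3446 bases and Ereg 9 in 3504, while Erbb2 had 0 in 1051. The 3′ UTR of Egfr, at 6306 bases, was longer than that of 98.0% of genes. The strand setting of the counting is not given in the sources used here, so counts of overlapping genes are uncertain. Erbb2 shares 9 bases with Mien1 and Adam17 shares 99 with Iah1, both listed genes.

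Promoters were taken from RefSeq on GRCm38.p6, where 7 of the 10 genes were matched, with 8 promoters. Each was searched on both strands from 250 bases before to 50 after the start for the cyclic AMP response element (CRE, TGACGTCA), AP-1 (TGANTCA), TEAD (CATTCC) and ETS (CCGGAAGT) motifs and for the CArG box of SRF. Areg and Errfi1 are shown because their windows hold the full palindromic CRE, which 1.79% of 32851 promoters hold. They set one of the steadiest of the 10 genes beside one of the most variable. The 250 bases before the start are printed 5′ to 3′ on the plus strand, with the CRE in capitals.

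Areg, chr5:91139349-91139598: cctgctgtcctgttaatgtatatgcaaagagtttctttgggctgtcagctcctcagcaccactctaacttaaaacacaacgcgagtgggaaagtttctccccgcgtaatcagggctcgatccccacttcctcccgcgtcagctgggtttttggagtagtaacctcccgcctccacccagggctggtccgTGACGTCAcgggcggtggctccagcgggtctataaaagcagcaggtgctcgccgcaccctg
Errfi1 (downstream start), chr4:150854820-150855069: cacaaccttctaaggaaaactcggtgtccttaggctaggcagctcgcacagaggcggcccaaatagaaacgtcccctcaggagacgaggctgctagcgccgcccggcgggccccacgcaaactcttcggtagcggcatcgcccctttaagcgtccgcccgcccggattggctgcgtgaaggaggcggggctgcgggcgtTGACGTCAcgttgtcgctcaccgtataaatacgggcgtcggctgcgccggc

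The CRE lies at -61 to -54 from the start of Areg and at -51 to -44 from the downstream start of Errfi1. A TEAD match was found at -65 to -60 of the upstream Errfi1 start and at -88 to -83 of Erbb2, a motif that 14.7% of promoters hold. No AP-1, ETS or CArG box match was found in the 8 windows, motifs that 7.81%, 3.89% and 1.63% of promoters hold. A match describes letters only, and binding of a factor was not measured.

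The wider pathway was described with 7 lists of 110 genes in all, 97 of them listed in the table. DESeq2 gave 91 an adjusted p and called 1 higher and 2 lower in shBrca2, where 0.77% and 0.5% of all genes with an adjusted p were called higher and lower. The median log2 fold change of the 97 genes was -0.08. The called genes were Ccnd1, Lif and Rasa1.

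Among growth factor response genes, 24 of 26 were listed, 0 were called higher and 2 lower, with a median log2 fold change of -0.23. Negative values were found for 19 of 24, beside 5016 of the 9997 genes with an adjusted p. Ccnd1, which encodes cyclin D1 and drives entry into the cell cycle, fell. Its normalized count was 794, 999 and 612 in shBrca2 and 1458, 1489 and 1882 in shControl, a log2 fold change of -1.01 (DESeq2 adjusted p = 4.53e-05) that kept its call in all 13 alternative fits. Lif, a cytokine of the interleukin-6 family, also fell, from 65.7, 79.7 and 103 in shControl to 43.6, 35.0 and 37.4 in shBrca2. Its log2 fold change was -1.11 ± 0.30 (SE, DESeq2 adjusted p = 0.0289). The call of Lif was lost with a surrogate variable (adjusted p = 0.152) and without shBrca2 2, shBrca2 3, shControl 2 or shControl 3, where the adjusted p reached 0.309.

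Among adaptors, Ras and MAP kinases, all 22 genes were listed, with 1 called higher and a median log2 fold change of 0.00085. Of all genes with an adjusted p, 0.77% were called higher. Rasa1, a GTPase activating protein that turns Ras off, rose. Normalized counts of Rasa1 were 21.8, 20.8 and 29.6 in shBrca2 and 5.05, 10.9 and 1.98 in shControl, a log2 fold change of 1.98 ± 0.60 (SE, DESeq2 adjusted p = 0.076). Its raw counts in shControl were 5, 13 and 2, so shControl 3 was below the detection floor of 3 counts and the fold is uncertain. The call of Rasa1 was lost with a surrogate variable (adjusted p = 0.236) and without shBrca2 1, shBrca2 3, shControl 1 or shControl 3, where the adjusted p reached 0.689, and DESeq2 gave it no adjusted p with TMM factors, total counts or the filter of 10 counts in 3 libraries, or without shBrca2 2. The adaptor Shc1 had the next smallest p, with a log2 fold change of 0.25 (adjusted p = 0.729).

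Of 14 inhibitors of ERK and receptor signaling besides Errfi1, 13 were listed, with a median log2 fold change of 0.14 and none called by DESeq2. Spry4, a Sprouty inhibitor of the Ras route, had normalized counts of 85.8, 68.1 and 64.4 in shBrca2 and 44.5, 40.3 and 35.6 in shControl. Dusp6, the phosphatase that inactivates ERK, had 548, 525 and 609 in shBrca2 and 427, 408 and 408 in shControl. For Spry4 and Dusp6 the groups did not overlap, which held for 20.3% of all listed genes. For both the libraries of a group lay close together, unlike those of Errfi1. The log2 fold changes were 0.85 for Spry4 and 0.44 for Dusp6, with adjusted p of 0.191 and 0.194 by DESeq2. Lrig1, a negative regulator of ErbB receptors named here after its values were seen, lay the other way without overlap, at 85.8, 59.6 and 72.2 normalized counts in shBrca2 and 109, 112 and 103 in shControl (log2 fold change -0.59, DESeq2 adjusted p = 0.398). In edgeR, Spry4 was called (adjusted p = 0.0975) and Dusp6 was not (0.15).

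The other lists held no called gene. Of 11 genes of ligand shedding and transport 9 were listed, with 7 negative values and a median log2 fold change of -0.31. The smallest p there were those of Rhbdl2, a rhomboid protease (log2 fold change -1.13, DESeq2 adjusted p = 0.384), and Adam15, a metalloprotease (-0.38, adjusted p = 0.555). The PI3K and Akt arm had 11 of 12 genes listed and a median of -0.13, led by the kinases Mtor (log2 fold change -0.54, DESeq2 adjusted p = 0.483) and Akt1 (-0.25, adjusted p = 0.75). Receptor endocytosis and degradation had 16 of 18 genes listed and a median of 0.03, led by Stam (0.68, adjusted p = 0.535) and Rab11a (0.70, adjusted p = 0.879). Of 7 other ErbB receptors and ligands 2 were listed, the neuregulins Nrg1 (log2 fold change -0.26, DESeq2 adjusted p = 0.936) and Nrg4 (0.38, adjusted p = 0.972).

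**Figure D5:**
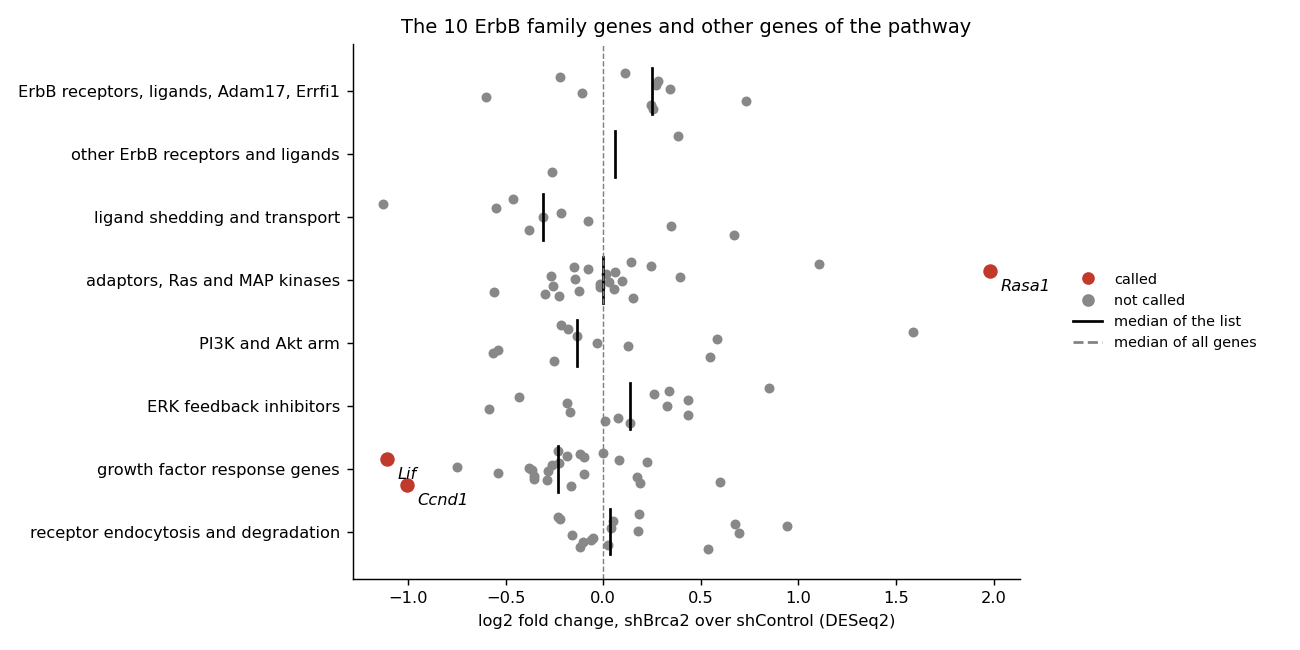
Log2 fold change of shBrca2 over shControl for each of the 10 genes and each listed gene of the 7 pathway lists (points, with vertical scatter only for legibility), the median of each list as a bar and the median of all genes as a dashed line. Of 97 pathway genes, Rasa1 is the called gene above 0, and Ccnd1 and Lif are the called genes below 0 (red, named).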

How the data were processed

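The authors made 3′ end libraries from oligo(dT) captured RNA of sorted cells by a MARS-seq variant, sequenced them on a NextSeq 500 and deposited raw counts per gene symbol, neither normalized nor pooled. The submitters' processing notes name bcl2fastq, cutadapt, STAR 2.4.2a, HTSeq, DESeq2 and mm10. The annotation, the strand setting and the use of molecular identifiers are not given in the sources used here, so errors given as counting error cover that alone. Groups came from the source names.

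All listed genes were fitted with DESeq2 1.42.0 in R 4.3.3 (median-of-ratios size factors, likelihood ratio test, thresholds of the study's methods), without shrinkage. Fold intervals are 95% intervals from the SE, which includes the fitted dispersion between libraries. The 13 alternative fits used edgeR 4.0.16, the Wald test, other scalings and filters, 1 surrogate variable from sva 3.50.0, or left out each library. The pipeline was tested on simulated data.

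Named were the 10 genes, Brca2, called genes and the 2 smallest p of each pathway list, and 5 genes by likeness. Cxcl5, Lrig1, Krt7 and Sox9 were added after their values were seen. The genes and lists were chosen with earlier results of these data known.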

Additional observations from a re-analysis of the deposited data

How the results depend on the processing

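The count of 127 called genes was 94 at an adjusted p under 0.05 and 121 to 154 under the other alternatives that kept all libraries. It was 47 to 140 when each library was left out (81 without shBrca2 1, 47 without shBrca2 3 and 55 without shControl 2). Similar counts did not mean the same genes. Shared with the 127 were 101 of 121 in edgeR and 100 of 154 with a surrogate variable. Without shControl 1 they were 90 of 140, and without shBrca2 3 they were 46 of 47. Of the 10 genes 0 were called in every alternative except the fit without shControl 1, with 1 called (Btc), so leaving out a library gave 0 to 1. Pathway genes called went from 3 to 1 with a surrogate variable, to 2 under TMM factors, total counts, the filter of 10 counts in 3 libraries or an adjusted p under 0.05, to 4 in edgeR, and to 1 to 2 with a library left out. With a surrogate variable the log2 fold change changed sign for Egfr (0.055), Erbb2 (0.00386), Ereg (-0.52) and Errfi1 (-0.38). With a library left out it ranged from -0.57 to 1.75 for Ereg, -0.081 to 0.24 for Tgfa and -0.12 to 1.26 for Errfi1, and from -0.40 to 0.024 for Nrg1. Beyond which samples or genes entered a fit, the cause was not tested. Over the 10 genes, 104 of 115 values kept their direction and side of the threshold, and 15 more, all of Egfr or Erbb3, had no adjusted p. The Wald test and the fit without independent filtering share the main fold changes, so direction could not change there. The 10 reversed values of the 115 all came with a surrogate variable or a library left out. No paired analysis was possible because the labels give no shared replicate numbers. Depth limited Egfr most, with 1 to 7 raw counts a library.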
